A study of Mus musculus with 8 samples.

Results

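Bone marrow stroma that carries the receptor Pdgfrα on its surface was compared according to whether the cells also expressed a Nes-Gfp transgene. The 4 libraries compared were chosen by their labels, 2 of GFP+ Pdgfrα+ cells and 2 of GFP- Pdgfrα+ cells, out of 8 libraries in the series. All 4 came from Nes-Gfp heterozygous pups on a C57BL/6 background at P1, with 3 pups pooled per library and no treatment. Crushed and collagenase-digested long bones (the study's methods add sterna) of littermates were sorted for cells without surface CD45, CD31 or Ter119, the markers of blood cells, endothelium and erythroid cells. The transgene places GFP under control elements of the nestin gene, so GFP marks cells in which those elements are active and need not follow the endogenous transcript. Between 15000 and 80000 cells per population were sorted, and each library describes a pool and not single cells. The other 4 libraries, of Pdgfrα- cells, entered the fit to estimate the spread.

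Nestin is an intermediate filament protein of neural and mesenchymal progenitors, and Pdgfrα is a receptor tyrosine kinase found on many mesenchymal cells. In newborn bone, Pdgfrα+ stroma can hold cells that form bone, tendon and ligament, cartilage, fibrous tissue and marrow support. Osteoblasts secrete a matrix of type I collagen and then mineralise it, while tendon cells build aligned collagen fibrils with small leucine-rich proteoglycans.

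The libraries held 3564158 and 3329432 reads for GFP+ replicates 1 and 2, and 3869275 and 3221217 reads for GFP- replicates 1 and 2. A level below is a normalised read count per 1000000. A value of 3 reads, here between 0.882 and 1.04, was taken as the floor, and a ratio to a group with both libraries at or below it is given as a lower bound. Levels are listed for replicate 1 and then replicate 2, with n = 2 libraries per group. Differences are means of log2(level + 1) in GFP+ minus GFP- cells, tested with limma across 15880 genes. A gene was called where its Benjamini-Hochberg adjusted p-value did not exceed 0.05. Permuting library labels exactly, with 2 in each group, cannot give a two-sided p-value below 0.333 for any gene, so each call rests on the spread that limma shares across genes and populations.

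Transcripts of the sort markers were read first. *Pdgfra* had levels of 733 and 754 in the GFP+ libraries and 839 and 794 in the GFP- libraries, and in the 4 Pdgfrα- libraries it lay between 3.30 and 18.1. The level of *Nes* was 57.6 and 72 in the GFP+ libraries and 27.4 and 47.1 in the GFP- libraries. Both GFP+ libraries were above both GFP- libraries for *Nes*, but the difference of 0.82 was not called (adjusted p = 0.213), and *Nes* was present in all 4 libraries. The libraries of the groups did not overlap, in either direction, for 7620 of 15880 genes (48%). Such a separation alone is therefore common, and this holds for every gene below. In GFP+ Pdgfrα- cells *Nes* was 149 and 176. *Ptprc*, which encodes CD45, was at 0.69 and 1.58 in the GFP+ libraries and 0.126 and 0.148 in the GFP- libraries, and *Pecam1*, which encodes CD31, at 4 and 9.06 in the GFP+ libraries and 3.91 and 4.01 in the GFP- libraries. *Ptprc* was at or close to the floor in every library, *Pecam1* was low with overlapping groups, and neither was called (adjusted p = 0.279 and 0.706). Ly76 was not analysed here. The library kit does not keep the strand, and the levels of *Notum*, *Prg4*, *Timp3*, *Tnc*, *Tnxb* and *Zeb2* below are less certain because their exons overlap those of other genes in the table. In bulk RNA, fewer cells of a type and less RNA per cell cannot be told apart, and this holds for every group of genes below.

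Of 15880 genes, 849 were called (5.35%), 511 higher (3.22%) and 338 lower (2.13%) in GFP+ cells. At an unadjusted p-value under 0.05 there were 2955 genes. The median difference over all genes was 0.00. A log2 difference of at least 2 was seen for 148 genes called higher and 66 called lower. Higher calls made up 60.2% of all calls. That share depended on the fit, with 390 higher and 382 lower when only the 4 Pdgfrα+ libraries were fitted and 521 higher and 536 lower with voom. It also moved when 1 library was left out. The fit then called 227 higher and 123 lower without GFP+ replicate 1, 353 and 164 without GFP+ replicate 2, 233 and 73 without GFP- replicate 1, and 169 and 77 without GFP- replicate 2. In these fits the lone library of a group is assumed to vary like the other groups. The spread between replicates was not equal: chi-square per degree of freedom was 9.12 in GFP+ and 4.12 in GFP- Pdgfrα+ cells, and 4.98 and 8.36 in GFP+ and GFP- Pdgfrα- cells. In all 4 of them 182 of the 849 genes were called, 134 higher and 48 lower, and the genes described in most detail below are among these unless a value without a library is given. Where 4 counts follow a list's count in brackets, they are the counts without GFP+ replicate 1, GFP+ replicate 2, GFP- replicate 1 and GFP- replicate 2, in that order.

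**Figure D1:**
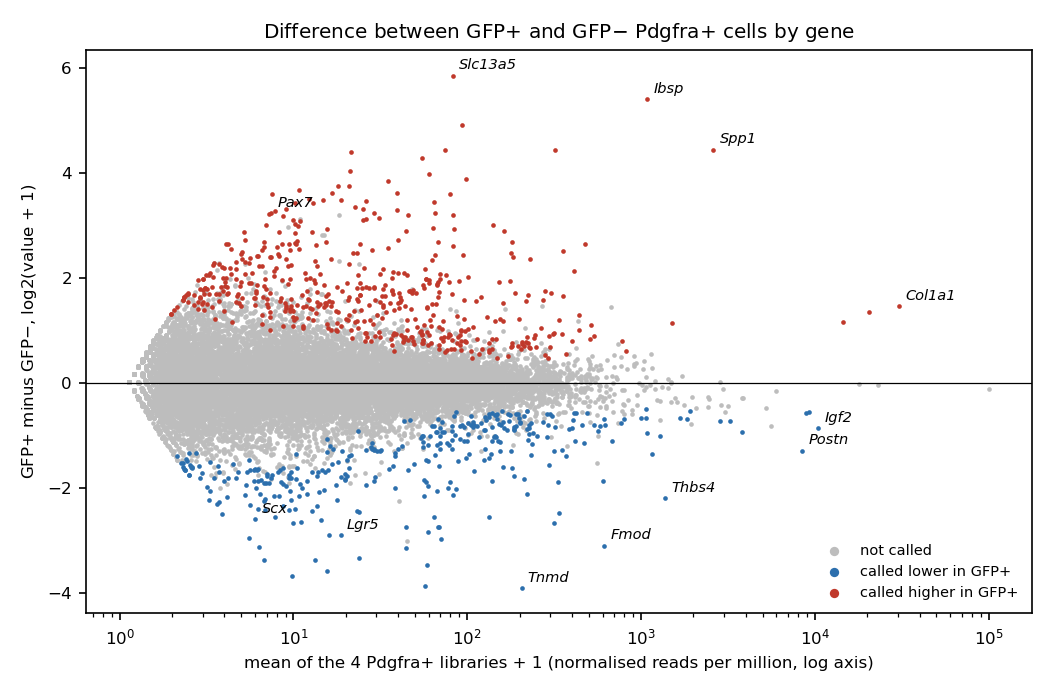
Each point is 1 gene, with the mean level of the 4 Pdgfrα+ libraries plus 1 on the x axis (normalised reads per 1000000, log axis) and the log2 difference of GFP+ minus GFP- cells on the y axis. Red points are genes called higher, blue points those called lower and grey points the rest; *Ibsp* and *Spp1* lie at the upper right and *Tnmd*, *Fmod* and *Thbs4* at the lower right.

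Of the 10 largest increases among genes reported, 6 were in the list for bone matrix and mineralization, described after the regulators. Among 12 entries of the table for 11 regulators of the osteoblast lineage, 6 were called (5.35% of all genes were), and all of these were higher, 2 of them entries of the same gene [5, 5, 4 and 4], with a median difference of 1.55 over the list. The homeobox factor *Dlx3* was at 59.5 and 43.6 in the GFP+ libraries and 3.66 and 5.49 in the GFP- libraries. *Tcf7*, which encodes TCF1, a nuclear partner of β-catenin, was at 89.9 and 51 in the GFP+ libraries and 5.67 and 6.39 in the GFP- libraries. For both factors the groups were apart, by 11.3-fold (adjusted p = 3.42e-04) and 11.7-fold (adjusted p = 4.10e-04). *Dlx5* was not called (adjusted p = 0.0594, and 0.0477 with replicate number as a block). *Dlx6*, its neighbour in the genome, was at or close to the floor in GFP- cells (4.28 and 7.91 in the GFP+ libraries and 0.126 and 1.04 in the GFP- libraries). It was at least 5.86-fold higher, and its adjusted p-value of 0.017 became 0.0995 without GFP+ replicate 2, 0.167 without GFP- replicate 1 and 0.0503 without GFP- replicate 2.

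Of 21 genes for bone matrix and mineralization, 16 were called, all higher [13, 16, 14 and 13], and all 21 had a positive difference, with a median of 1.93. The 10 genes for matrix proteins had a median difference of 3.79 with 8 called [6, 9, 7 and 6], and the 8 for phosphate and mineral handling 2.46 with 5 called [5, 5, 5 and 5]. *Ibsp*, which encodes bone sialoprotein, a nucleator of hydroxyapatite, stood at 2466 and 1774 in the GFP+ libraries and 61.6 and 38.2 in the GFP- libraries. *Spp1* (osteopontin) was at 6048 and 3915 in the GFP+ libraries and 287 and 174 in the GFP- libraries, and *Dmp1*, a matrix phosphoprotein of late osteoblasts and osteocytes, at 216 and 143 in the GFP+ libraries and 3.4 and 6.98 in the GFP- libraries. In each of these genes the lowest GFP+ library lay far above the highest GFP- library, and the ratios of the means were 42.5-fold, 21.6-fold and 34.6-fold. *Bglap* (osteocalcin) was at 42.4 and 35.5 in the GFP+ libraries and 1.89 and 1.04 in the GFP- libraries, near the floor in GFP- cells. Its sequence is shared with close family members, so the reads given to each are uncertain. Per kilobase of exon, the mean level in GFP+ cells was 3023 for *Spp1*, 1025 for *Ibsp*, 64.9 for *Dmp1* and 6818 for *Col1a1*, the alpha 1 chain of type I collagen. On the same scale the GFP- means were 139.9, 24.1, 1.88 and 2453. *Col1a1* thus led *Spp1*, *Ibsp* and *Dmp1* in both groups, by a smaller ratio but a larger difference in GFP+ cells.

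The mineralization machinery followed. *Phospho1*, a phosphatase of matrix vesicles that releases phosphate for the first crystals, was at 153 and 71.7 in the GFP+ libraries and 6.68 and 4.9 in the GFP- libraries. *Smpd3*, a neutral sphingomyelinase whose loss impairs mineralization, was at 119 and 87 in the GFP+ libraries and 5.42 and 3.42 in the GFP- libraries, and *Phex*, an endopeptidase that holds the phosphate hormone FGF23 in check, at 147 and 148 in the GFP+ libraries and 16 and 14.4 in the GFP- libraries. All 3 were low in both GFP- libraries and high in both GFP+ libraries (19.4-fold, 23.3-fold and 9.69-fold). Replicates of *Phex* nearly coincided within each group, whereas GFP+ replicate 1 held more *Phospho1* than replicate 2. Exons of *Phospho1* overlap those of other genes in the table, which leaves its level less certain. *Slc13a5*, which carries citrate into the cell, had the largest increase of the called genes reported, from 2.4 and 1.34 in GFP- cells to 171 and 152 in GFP+ cells (86.5-fold, adjusted p = 1.34e-06). *Panx3*, a channel protein of osteoblasts and chondrocytes, was at 172 and 108 in the GFP+ libraries and 8.19 and 3.42 in the GFP- libraries. *Syt6*, a synaptotagmin, was at 45.4 and 34.4 in the GFP+ libraries and 1.13 and 0.743 in the GFP- libraries, near the floor in GFP- cells. Both stood clear of the GFP- libraries, with adjusted p = 1.22e-04 and 1.08e-04. *Vdr*, the vitamin D receptor and 1 of 2 called among 15 hormone receptors [1, 2, 1 and 2 higher], was at 174 and 118 in the GFP+ libraries and 14.5 and 8.17 in the GFP- libraries (12.9-fold, adjusted p = 4.99e-05).

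*Dmp1*, *Ibsp* and *Spp1* are neighbours in the genome. In build NCBIM37 they lie on the plus strand at chr5:104631632-104643121, chr5:104728190-104740488 and chr5:104864137-104870069, and *Mepe* lies between the last pair at chr5:104754348-104767630. *Mepe*, which encodes a phosphoprotein of osteocytes, was at 4 and 1.01 in the GFP+ libraries and 0.126 and 0.446 in the GFP- libraries. Both GFP- libraries were at or below the floor and only GFP+ replicate 1 stood clearly above it, and *Mepe* was not called (adjusted p = 0.125). Of the 6 osteocyte markers present, 3 were called, all higher [3, 4, 3 and 2], with a median of 1.80. They included *Dkk1*, an inhibitor of Wnt signalling, at 8.98 and 6.47 in the GFP+ libraries and 1.13 and 0.446 in the GFP- libraries, whose adjusted p-value of 0.00518 became 0.072 without GFP- replicate 2. *Dmp1*, *Mepe* and *Phex* are members of both the osteocyte and the bone matrix list, so the counts of these lists are not separate results.

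Promoters were searched for TGTGGT, the core letters bound by RUNX factors, on both strands (ACCACA on the other). The search covered 250 bases before to 50 bases after each start in RefSeq, build GRCm38.p6. Of 32851 promoters of all genes 5506 held the letters (16.8%), and of 27025 genes 5113 had at least 1 such promoter (18.9%). Of the genes called higher 342 matched a promoter by symbol and 61 of these held the letters (17.8%). Of the genes called lower 231 matched and 41 held them (17.7%), so neither direction stood apart from all genes. Among the called bone matrix genes 13 matched and 4 held the letters (30.8%), and among the called tendon genes 5 matched and 0 held them. The 3 promoters printed here were picked because they hold the letters, in capitals, and belong to genes with large increases; a match is a description of the sequence only. A second promoter of *Spp1* and 1 of the 2 of *Dmp1* did not hold them. The promoter of *Bglap* is chr3:88384417-88384716 on the minus strand, the printed promoter of *Spp1* chr5:104434861-104435160 on the plus strand, and that of the collagenase gene *Mmp13* chr9:7272264-7272563 on the plus strand.
Bglap: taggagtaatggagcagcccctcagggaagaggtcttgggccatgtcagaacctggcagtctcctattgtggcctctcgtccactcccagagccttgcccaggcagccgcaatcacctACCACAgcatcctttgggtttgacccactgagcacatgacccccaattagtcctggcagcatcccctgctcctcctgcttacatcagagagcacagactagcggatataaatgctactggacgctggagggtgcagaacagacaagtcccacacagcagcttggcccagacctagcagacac
Spp1: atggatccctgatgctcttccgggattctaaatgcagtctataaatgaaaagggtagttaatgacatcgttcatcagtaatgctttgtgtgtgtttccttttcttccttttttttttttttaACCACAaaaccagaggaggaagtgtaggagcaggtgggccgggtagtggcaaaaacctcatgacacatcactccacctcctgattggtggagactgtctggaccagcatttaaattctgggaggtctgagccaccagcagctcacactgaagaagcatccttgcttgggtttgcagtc
Mmp13: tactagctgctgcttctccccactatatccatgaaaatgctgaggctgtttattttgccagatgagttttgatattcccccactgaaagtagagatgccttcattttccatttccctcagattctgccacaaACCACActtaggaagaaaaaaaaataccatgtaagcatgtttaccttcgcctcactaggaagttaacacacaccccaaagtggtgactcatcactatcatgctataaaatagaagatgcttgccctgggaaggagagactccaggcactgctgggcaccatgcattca

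The letters begin 132, 128 and 118 bases before the start in *Bglap*, *Spp1* and *Mmp13*.

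Genes of tendon and ligament moved the other way. Of 12 in the list, 9 were called lower [7, 7, 7 and 7] and 1 higher [0, 1, 0 and 0], with a median difference of −2.39. *Tnmd*, which encodes the tendon membrane protein tenomodulin, was at 21.4 and 28.3 in the GFP+ libraries and 407 and 360.1 in the GFP- libraries, and *Kera*, which encodes the proteoglycan keratocan, at 9.25 and 4.17 in the GFP+ libraries and 113 and 99 in the GFP- libraries. *Scx*, the transcription factor scleraxis that marks tendon progenitors, was at the floor in both GFP+ libraries (0.69 and 0.719) and at 7.94 and 10.8 in GFP- cells. The groups did not overlap for any of the 3, as for 48% of all genes. *Tnmd* was 15.4-fold lower and *Kera* 15.8-fold lower in GFP+ cells, and *Scx* at least 9.33-fold lower (adjusted p = 0.00196). *Thbs4*, a thrombospondin of the tendon matrix, fell from 2265 and 2229 to 473 and 509 (log2 difference −2.19, adjusted p = 4.68e-06). *Fmod*, which encodes fibromodulin and steers collagen fibril growth, fell from 1019 and 1168 to 140.4 and 113. Both were still well above the floor in GFP+ cells, so the transcripts were reduced and not absent. The summed level of the list was 5248 and 4959 in GFP+ cells against 10760.0 and 11017 in GFP- cells. The most abundant member, *Col12a1*, made up 51.3% of the GFP+ sum.

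Of 24 cartilage genes 8 were lower [3, 4, 7 and 2] and 2 higher [1, 2, 1 and 2], with a median of −0.91. *Col2a1*, the main collagen of hyaline cartilage, was at 175 and 280.4 in the GFP+ libraries and 273 and 1498 in the GFP- libraries, so GFP- replicate 2 stood alone and the groups overlapped (adjusted p = 0.269, and 0.0134 with replicate number as a block). *Comp*, a thrombospondin of cartilage and tendon, was at 8.42 and 7.62 in the GFP+ libraries and 68.5 and 89.5 in the GFP- libraries, and *Cilp2*, of the cartilage intermediate layer, at 1.52 and 1.01 in the GFP+ libraries and 16.5 and 29.8 in the GFP- libraries; both were counted with the tendon genes. In the cartilage list itself, *Lect1*, which encodes chondromodulin, was at 0.414 and 2.16 in the GFP+ libraries and 14 and 41.4 in the GFP- libraries. These 3 were low in both GFP+ libraries and were called in each fit that left out 1 library, with differences of −3.14, −3.37 and −3.58. *Ucma*, a small secreted protein of early chondrocytes, was at 0 reads in both GFP+ libraries and at 4.66 and 16.5 in GFP- cells. It was at least 10.5-fold lower, and its adjusted p-value of 0.0115 became 0.0776 without GFP+ replicate 1, 0.0692 without GFP+ replicate 2 and 0.132 without GFP- replicate 2. *Prg4* (lubricin), the lubricant of joint surfaces, was at 58.4 and 109.7 in the GFP+ libraries and 361 and 736 in the GFP- libraries, and its adjusted p-value of 0.00525 became 0.0751 without GFP+ replicate 1 and 0.104 without GFP- replicate 2. In sum the list reached 3297 and 2618 in GFP+ cells and 2125 and 4409 in GFP- cells, with *Col11a1* the most abundant member (70.4% of the GFP+ sum). *Matn1* and *Ucma* were at 0 reads in both GFP+ libraries. The part of cartilage cells in the result was not tested.

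Of 42 collagen genes, 9 were higher [5, 7, 5 and 6] and 8 lower [1, 2, 3 and 0], with a median of −0.35; the lower calls were lost without GFP- replicate 2. The main chain of bone collagen, *Col1a1*, had levels of 51184 and 38311 in the GFP+ libraries and 16841 and 15352 in the GFP- libraries, a difference of 1.46 (adjusted p = 5.69e-04). *Col11a2*, a minor fibrillar chain that limits fibril width, was at 338 and 254 in the GFP+ libraries and 32.4 and 83.3 in the GFP- libraries. *Col22a1*, known from tissue junctions, was at 156 and 125 in the GFP+ libraries and 24.6 and 19.8 in the GFP- libraries, and *Col20a1*, of the class that sits on fibril surfaces, at 23.3 and 27.5 in the GFP+ libraries and 2.4 and 4.01 in the GFP- libraries. In all of these both GFP+ libraries were above both GFP- libraries, with ratios of 5.12-fold, 6.33-fold and 7.93-fold. Groups lay apart, in either direction, for 48% of all genes. On the lower side, *Col8a1*, a short-chain collagen of vessel walls and membranes, was at 57.3 and 72 in the GFP+ libraries and 167 and 196 in the GFP- libraries, and *Col6a3*, a chain of the beaded filaments around cells, at 2173 and 2104 in the GFP+ libraries and 3493 and 3638 in the GFP- libraries. *Col8a1* had an adjusted p-value of 0.00211, which became 0.061 without GFP- replicate 2. That of *Col6a3*, 0.0234, became 0.108 without GFP+ replicate 1, 0.122 without GFP+ replicate 2, 0.145 without GFP- replicate 1 and 0.176 without GFP- replicate 2. Among 29 genes for collagen modification and secretion 5 were higher [0, 4, 0 and 1] and 1 lower [1, 1, 1 and 1], with a median of 0.20. The lower gene was *P4ha3*, a catalytic subunit of prolyl 4-hydroxylase, at 38.8 and 28 in the GFP+ libraries and 146 and 127 in the GFP- libraries (4.09-fold lower, adjusted p = 0.00144). *Loxl4*, a lysyl oxidase that cross-links collagen, was at 70.0 and 48.2 in the GFP+ libraries and 6.93 and 11.4 in the GFP- libraries, and its adjusted p-value of 0.00319 became 0.0548 without GFP+ replicate 1 and 0.055 without GFP- replicate 1.

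Of 14 small leucine-rich proteoglycans 6 were lower [4, 5, 3 and 4] and 1 higher [0, 1, 0 and 0; 2 with the replicate block], with a median of −0.73 (−0.43 after quantile normalization). These calls include *Kera*, also counted with the tendon genes, and *Omd*, also counted with bone matrix. *Prelp*, which anchors basement membrane to collagen, was at 227 and 293 in the GFP+ libraries and 893 and 1008 in the GFP- libraries, and *Aspn* (asporin), which binds collagen and TGF-β, at 776 and 939 in the GFP+ libraries and 1803 and 1643 in the GFP- libraries. *Prelp* was 3.66-fold lower (adjusted p = 3.68e-04). The adjusted p-value of *Aspn* was 0.00258, and 0.0534 without GFP- replicate 1. *Omd* (osteomodulin), a bone member of the family, was the higher member at 52.9 and 35.5 in the GFP+ libraries and 11.2 and 12.3 in the GFP- libraries, and its adjusted p-value of 0.0134 became 0.123 without GFP+ replicate 1, 0.121 without GFP- replicate 1 and 0.0977 without GFP- replicate 2.

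Of 32 matricellular and elastic fibre genes 7 were lower [5, 5, 4 and 4] and 2 higher [0, 1, 1 and 0], with a median of −0.36. *Postn* (periostin), made by periosteum, ligament and other fibrous tissue under load, was at 4514 and 5289 in the GFP+ libraries and 11988 and 11989 in the GFP- libraries. *Ltbp2*, a partner of elastic microfibrils, was at 18.9 and 14.2 in the GFP+ libraries and 114 and 119 in the GFP- libraries, and *Nov*, which encodes the matricellular protein CCN3, at 89.1 and 95.3 in the GFP+ libraries and 353 and 311 in the GFP- libraries. The replicates of each lay close together and the groups far apart, with log2 differences of −1.29, −2.75 and −1.83 (adjusted p = 1.41e-04, 3.25e-04 and 2.76e-04). *Eln*, which encodes elastin itself, was at 81.9 and 82.9 in the GFP+ libraries and 249.7 and 326 in the GFP- libraries, and its adjusted p-value of 0.0229 became 0.126 without GFP+ replicate 1, 0.116 without GFP+ replicate 2, 0.119 without GFP- replicate 1 and 0.208 without GFP- replicate 2. *Tnc* (tenascin-C) was 1 of the 2 higher members at 1145 and 822 in the GFP+ libraries and 589 and 533 in the GFP- libraries, and its adjusted p-value of 0.0101 became 0.0848 without GFP+ replicate 1, 0.0673 without GFP- replicate 1 and 0.125 without GFP- replicate 2.

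Markers of interstitial fibroblasts had a median difference of −0.72. All 15 had a negative difference, and 4 were called lower [1, 0, 0 and 0]. Their summed level was 2713 and 2945 in GFP+ cells against 4657 and 4532 in GFP- cells, with *Tnxb* the most abundant member (29.1% of the GFP+ sum). *Tnxb*, which encodes tenascin-X, was at 822 and 822 in the GFP+ libraries and 1310.2 and 1295 in the GFP- libraries. Its replicates lay close together, but the adjusted p-value of 0.0187 became 0.104 without GFP+ replicate 1, 0.0969 without GFP+ replicate 2, 0.158 without GFP- replicate 1 and 0.147 without GFP- replicate 2.

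**Figure D2:**
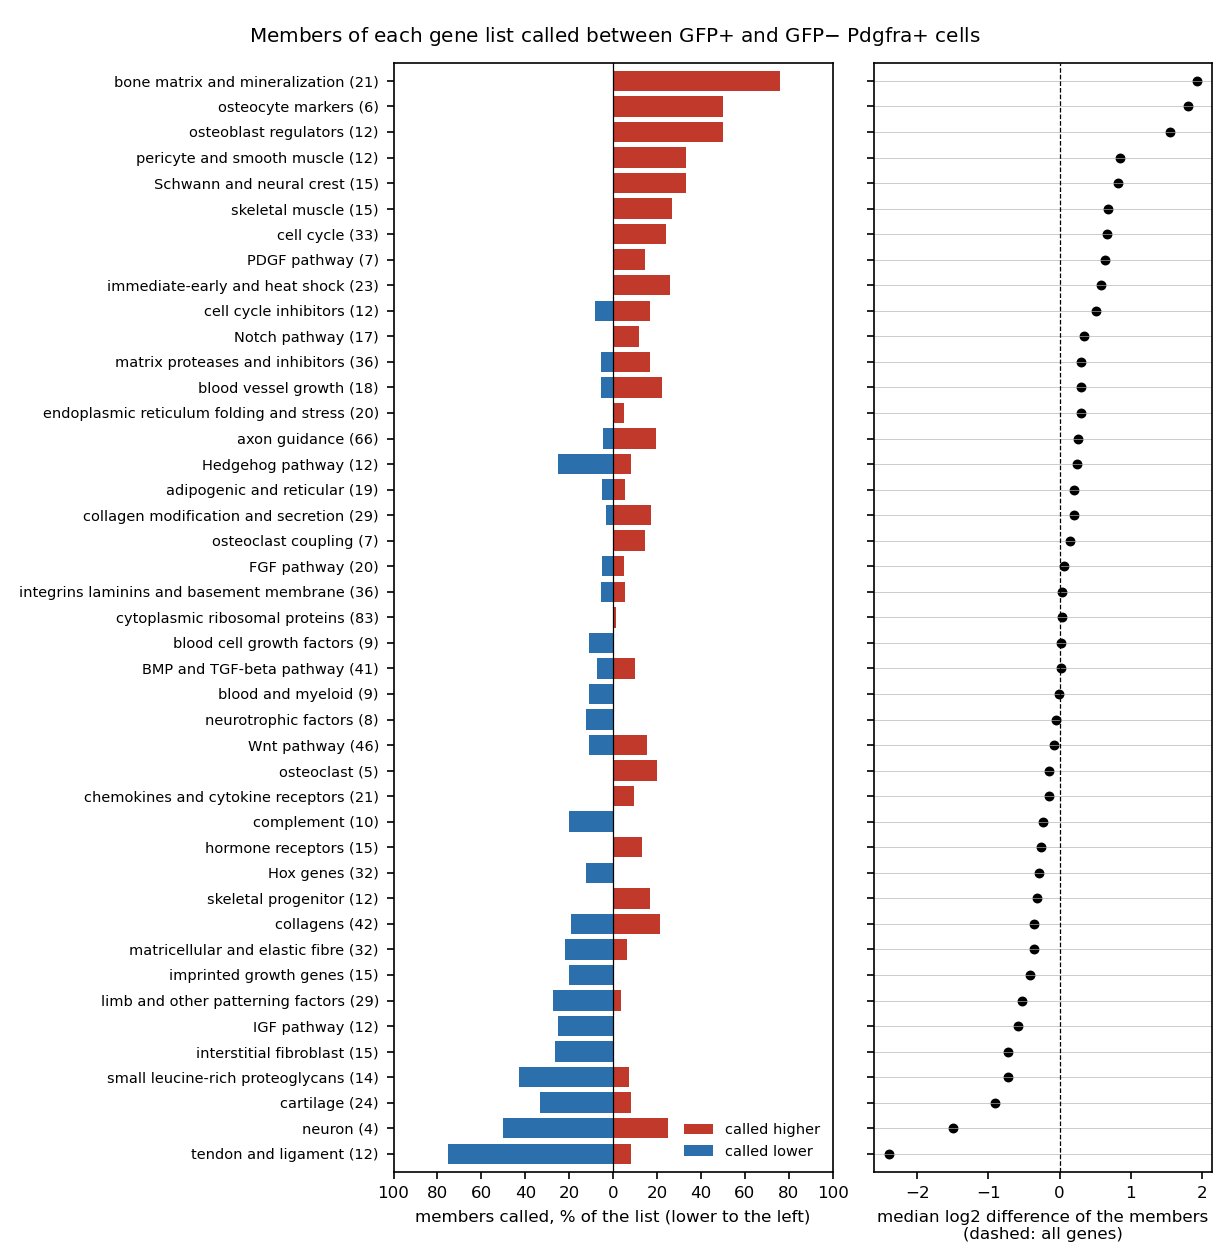
Left, the share of each list's members called higher (red, to the right) or lower (blue, to the left) in GFP+ against GFP- Pdgfrα+ cells, in percent of the members in the table (number in brackets). Right, the median log2 difference of the members, with a dashed line at the median of all genes (0.00). Only lists with at least 1 call are drawn; bone matrix is at the top with 16 of 21 higher, and tendon and ligament at the bottom with 9 of 12 lower.

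Among 36 matrix proteases and their inhibitors 6 were higher [3, 4, 3 and 3] and 2 lower [0, 0, 0 and 0], with a median of 0.31. *Mmp13*, the main collagenase of bone and growth cartilage, was at 675 and 546 in the GFP+ libraries and 34.2 and 21.8 in the GFP- libraries, a 21.8-fold ratio of means (adjusted p = 9.32e-07). *Mmp9*, a gelatinase that is also typical of osteoclasts, was at 16.4 and 26.6 in the GFP+ libraries and 0.63 and 1.34 in the GFP- libraries, near the floor in GFP- cells (21.9-fold, adjusted p = 0.00192). In the list of 5 osteoclast markers in the table *Mmp9* was the 1 member called [1, 1, 1 and 1]. That list summed to 59.8 and 82.1 in GFP+ cells and 53.6 and 59.5 in GFP- cells. Its most abundant member, *Ctsk*, was 64.3% of the GFP+ sum, and no member was at 0 reads in both libraries of either group. The part of osteoclasts in the result was not tested. *Timp3*, an inhibitor of metalloproteinases, was at 288 and 235 in the GFP+ libraries and 610.3 and 523 in the GFP- libraries, and its adjusted p-value of 0.0258 became 0.0848 without GFP+ replicate 1, 0.164 without GFP+ replicate 2, 0.213 without GFP- replicate 1 and 0.128 without GFP- replicate 2.

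In the Wnt pathway, which drives osteoblast differentiation through β-catenin, 7 of 46 genes were higher [3, 5, 3 and 1] and 5 lower [1, 1, 1 and 2], with a median of −0.08. Secreted antagonists were called in both directions, 3 higher [2, 3, 2 and 0] and 3 lower [0, 0, 0 and 1] of 12. *Wif1*, which binds Wnt ligands, was at 110.3 and 73.2 in the GFP+ libraries and 25.3 and 19.2 in the GFP- libraries, and *Notum*, which removes the lipid that ligands need, at 11.2 and 7.91 in the GFP+ libraries and 0.882 and 1.04 in the GFP- libraries. For both genes the GFP+ libraries were the higher ones. The adjusted p-value of *Wif1*, 0.00261, became 0.0508 without GFP+ replicate 1 and 0.0541 without GFP- replicate 2, and that of *Notum*, 0.00484, became 0.0534 without GFP- replicate 1 and 0.0502 without GFP- replicate 2. *Dkk2* was at 21.1 and 20.3 in the GFP+ libraries and 80.8 and 56 in the GFP- libraries, so it and its relative *Dkk1* pointed in opposite directions. The adjusted p-value of *Dkk2*, 0.0121, became 0.0708 without GFP+ replicate 1, 0.0692 without GFP+ replicate 2, 0.162 without GFP- replicate 1 and 0.061 without GFP- replicate 2. *Sfrp2*, a decoy for Wnt ligands, was at 25.5 and 18 in the GFP+ libraries and 135 and 55.4 in the GFP- libraries, with GFP- replicate 1 the highest, and its adjusted p-value of 0.0219 became 0.0771 without GFP+ replicate 1, 0.147 without GFP+ replicate 2 and 0.257 without GFP- replicate 1. *Lgr5*, a receptor for R-spondins that raises Wnt signalling, was at 2.35 and 4.74 in the GFP+ libraries and 33.9 and 29.8 in the GFP- libraries (8.99-fold lower in GFP+ cells, adjusted p = 0.00171). None of the 9 Wnt ligands in the table was called by limma, edgeR, DESeq2 or voom (2 at an unadjusted p-value under 0.05), but 1 was called lower by limma without a mean-variance trend.

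Hedgehog signalling is transduced when a ligand binds Patched together with a coreceptor. All 3 coreceptors, *Cdon*, *Boc* and *Gas1*, were lower in GFP+ cells. *Cdon* was at 265 and 314 in the GFP+ libraries and 683 and 608 in the GFP- libraries, *Gas1* at 172 and 191 in the GFP+ libraries and 456 and 441 in the GFP- libraries, and *Boc* at 141 and 139.9 in the GFP+ libraries and 324 and 281 in the GFP- libraries. In each the GFP- libraries lay above the GFP+ libraries, with differences of −1.16, −1.30 and −1.10 (adjusted p = 5.84e-04, 8.64e-04 and 0.0136). The value for *Boc* became 0.0866 without GFP+ replicate 1, 0.0833 without GFP+ replicate 2, 0.158 without GFP- replicate 1 and 0.093 without GFP- replicate 2. *Ptch1*, the receptor and itself a target of the pathway, was at 319.7 and 231 in the GFP+ libraries and 157 and 158 in the GFP- libraries, higher in GFP+ cells. Its adjusted p-value of 0.0159 became 0.129 without GFP+ replicate 1, 0.128 without GFP- replicate 1 and 0.125 without GFP- replicate 2. Over the 12 genes 3 were lower [2, 2, 2 and 2] and 1 higher [0, 1, 0 and 0], with a median of 0.24.

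Among 17 Notch pathway genes 2 were called, both higher [1, 1, 1 and 1], with a median of 0.34. *Heyl*, a transcriptional repressor induced by Notch, was at 102 and 118 in the GFP+ libraries and 20.5 and 18.3 in the GFP- libraries, 5.65-fold apart (adjusted p = 4.44e-04). The receptor gene *Notch3* was at 118 and 125 in the GFP+ libraries and 51.6 and 48.6 in the GFP- libraries, and its adjusted p-value of 0.00656 became 0.0534 without GFP+ replicate 1, 0.0573 without GFP+ replicate 2, 0.0634 without GFP- replicate 1 and 0.0855 without GFP- replicate 2. *Notch3* shares exons with another gene in the table, which makes its level less certain. *Heyl* was higher still in GFP+ Pdgfrα- cells, at 295 and 364.

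In the BMP and TGF-β pathways 4 of 41 genes were higher [1, 2, 1 and 0] and 3 lower [0, 0, 0 and 0], with a median of 0.01. *Bmp3*, an abundant bone protein that opposes osteogenic BMPs, was at 148 and 94.7 in the GFP+ libraries and 30.1 and 25.4 in the GFP- libraries, and *Tgfb1*, a ligand stored in bone matrix, at 54.5 and 29.2 in the GFP+ libraries and 11 and 10.5 in the GFP- libraries. *Tgfb2* was at 59.5 and 76.3 in the GFP+ libraries and 132 and 134 in the GFP- libraries, so the ligands *Tgfb1* and *Tgfb2* moved apart. None of these was called in every fit that left out a library. The adjusted p-value of *Bmp3*, 0.00482, became 0.0751 without GFP+ replicate 1 and 0.0772 without GFP- replicate 2, that of *Tgfb1*, 0.00482, became 0.057 without GFP+ replicate 1, 0.0511 without GFP- replicate 1 and 0.061 without GFP- replicate 2, and that of *Tgfb2*, 0.0276, became 0.179 without GFP+ replicate 1, 0.0577 without GFP+ replicate 2, 0.166 without GFP- replicate 1 and 0.178 without GFP- replicate 2.

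The 12 genes of the IGF pathway had a median of −0.58, with 3 called lower [1, 1, 1 and 1]. *Pappa2*, a protease that frees IGF from its binding proteins, was at 8.42 and 9.06 in the GFP+ libraries and 119 and 94.9 in the GFP- libraries, 12.3-fold lower in GFP+ cells (adjusted p = 2.00e-04). *Igf2*, the fetal growth factor, was at 7272 and 7468 in the GFP+ libraries and 13853 and 12997 in the GFP- libraries, and *Igfbp5*, a binding protein and substrate of *Pappa2*, at 2505 and 2328 in the GFP+ libraries and 4513 and 3549 in the GFP- libraries. The libraries of the groups did not overlap for either, as for 48% of all genes. Their adjusted p-values were 0.031 and 0.0278; that of *Igf2* became 0.152 without GFP+ replicate 1, 0.126 without GFP+ replicate 2, 0.213 without GFP- replicate 1 and 0.163 without GFP- replicate 2, and that of *Igfbp5* became 0.105 without GFP+ replicate 1, 0.151 without GFP+ replicate 2, 0.267 without GFP- replicate 1 and 0.072 without GFP- replicate 2. *Igf2* overlaps an antisense gene that the kit cannot separate. It is imprinted, and of 15 imprinted growth genes 3 were lower [0, 1, 0 and 0; 5 with the replicate block], with a median of −0.42 (−0.20 after quantile normalization). In the FGF pathway *Fgfr4*, a receptor, was the 1 member of 20 called higher [1, 3, 1 and 1], at 12.8 and 8.48 in the GFP+ libraries and 0.378 and 1.34 in the GFP- libraries (12.4-fold, adjusted p = 0.00196), and 1 ligand was called lower [0, 0, 0 and 1; 0 with the replicate block]. The 7 genes of the PDGF pathway included 1 call [0, 1, 0 and 0], the ligand gene *Pdgfc*, at 64.5 and 52.5 in the GFP+ libraries and 20.5 and 18.6 in the GFP- libraries. Its adjusted p-value of 0.00691 became 0.0776 without GFP+ replicate 1, 0.058 without GFP- replicate 1 and 0.086 without GFP- replicate 2.

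Of 66 entries for 65 axon guidance genes, which also act in vessels and bone, 13 were higher [7, 10, 5 and 6] and 3 lower [1, 1, 1 and 1], with a median of 0.25. Together these were 24.2% of the entries, against 5.35% of all genes. The study had already reported axon guidance among the categories enriched between these populations. Of 19 entries for ephrins and their receptors 1 was called, higher [0, 0, 0 and 0], a share of 5.26% and near that of all genes. Semaphorins, the ligands, gave 5 higher [3, 4, 2 and 3] and 2 lower [0, 0, 0 and 0] of 19. *Sema4d*, a membrane semaphorin, was at 46.3 and 41.5 in the GFP+ libraries and 4.16 and 4.31 in the GFP- libraries, and *Sema7a*, a lipid-anchored semaphorin, at 18.6 and 12.2 in the GFP+ libraries and 1.64 and 1.93 in the GFP- libraries. Of 11 semaphorin receptor genes 4 were called, all higher [2, 4, 2 and 1]. *Nrp2*, a neuropilin that binds class 3 semaphorins and VEGF-C, was at 706 and 494 in the GFP+ libraries and 114 and 94 in the GFP- libraries. In these 3 genes every GFP+ library exceeded every GFP- library, with ratios of 10.4-fold, 8.65-fold and 5.78-fold (adjusted p = 1.78e-05, 0.00253 and 2.14e-04). *Plxnb1*, the receptor for *Sema4d*, was at 52.6 and 29.8 in the GFP+ libraries and 8.95 and 6.98 in the GFP- libraries, and its adjusted p-value of 0.00776 became 0.0949 without GFP+ replicate 1, 0.0568 without GFP- replicate 1 and 0.0991 without GFP- replicate 2. Netrin signalling showed a ligand and a receptor moving in opposite directions. *Ntn1*, which encodes netrin-1, was at 49.9 and 53 in the GFP+ libraries and 167 and 166 in the GFP- libraries (3.23-fold lower, adjusted p = 0.00172), and *Unc5b*, a repulsive netrin receptor, was at 173 and 119 in the GFP+ libraries and 24.8 and 12.9 in the GFP- libraries (7.74-fold higher, adjusted p = 5.97e-04). Of 8 neurotrophic ligands 1 was called lower [1, 1, 0 and 1]. It was *Ptn* (pleiotrophin), also the 1 gene called of 9 blood cell growth factors [1, 1, 0 and 1], a heparin-binding growth factor, at 166 and 128 in the GFP+ libraries and 497 and 379 in the GFP- libraries, and its adjusted p-value of 0.0039 became 0.0796 without GFP- replicate 1. Among 18 genes for blood vessel growth 4 were higher [1, 2, 2 and 1] and 1 lower [0, 1, 0 and 0]. They included *Epas1*, which encodes the oxygen-sensitive factor HIF-2α, at 52.1 and 59.4 in the GFP+ libraries and 16 and 15.9 in the GFP- libraries, whose adjusted p-value of 0.0109 became 0.068 without GFP+ replicate 1, 0.0853 without GFP+ replicate 2, 0.1 without GFP- replicate 1 and 0.103 without GFP- replicate 2. The lower gene was *Angptl2*, a secreted angiopoietin-like protein, at 385 and 389.7 in the GFP+ libraries and 721 and 746 in the GFP- libraries, and its adjusted p-value of 0.00575 became 0.0551 without GFP+ replicate 1, 0.064 without GFP- replicate 1 and 0.0827 without GFP- replicate 2.

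Of 10 complement genes 2 were lower [2, 0, 0 and 0]. *C4b*, a complement component, was at 23.3 and 12.8 in the GFP+ libraries and 129 and 88.7 in the GFP- libraries, and its adjusted p-value of 0.00846 became 0.0845 without GFP+ replicate 2, 0.129 without GFP- replicate 1 and 0.069 without GFP- replicate 2. Of 21 chemokines and cytokine receptors 2 were higher [2, 2, 2 and 2]. They were *Lifr*, the receptor for leukaemia inhibitory factor, at 607 and 467 in the GFP+ libraries and 171 and 169 in the GFP- libraries, and *Tnfrsf19*, a TNF receptor family member also known as Troy, at 128 and 80.1 in the GFP+ libraries and 25.8 and 14.4 in the GFP- libraries. Both were 3.16-fold and 5.16-fold higher, respectively, with no overlap of libraries. *Cd200*, a surface protein used to sort skeletal progenitors, was at 187 and 129 in the GFP+ libraries and 30.9 and 25.1 in the GFP- libraries and was 1 of 2 called among 12 such markers [2, 2, 2 and 1], whose median was −0.31. It was 5.65-fold higher (adjusted p = 0.00211). *Tnfsf11* (RANKL), the cytokine that osteoclasts need, was the 1 member called [0, 1, 0 and 0] of 7 genes for osteoclast coupling, at 8.7 and 4.17 in the GFP+ libraries and 0.378 and 1.34 in the GFP- libraries. Its adjusted p-value of 0.025 became 0.14 without GFP+ replicate 1, 0.207 without GFP- replicate 1 and 0.0696 without GFP- replicate 2, and edgeR, DESeq2 and voom did not call it.

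**Figure D3:**
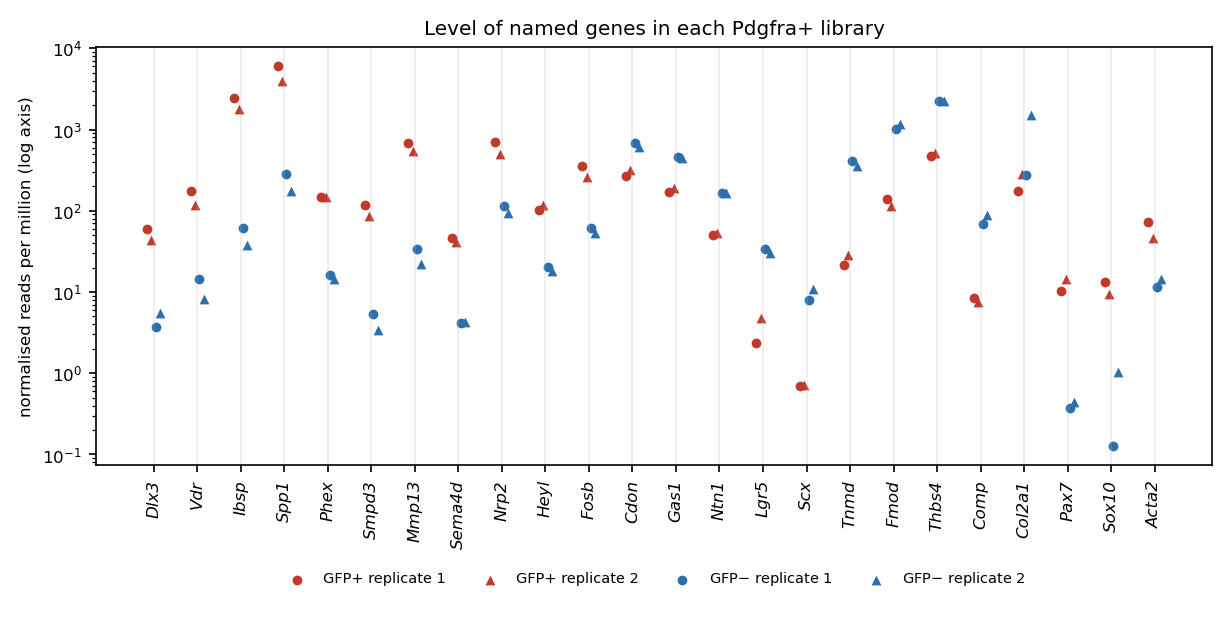
Levels of 24 named genes (x axis) in the 4 Pdgfrα+ libraries (y axis, normalised reads per 1000000, log axis). Red marks are GFP+ libraries and blue marks GFP- libraries, with circles for replicate 1 and triangles for replicate 2. Genes from *Dlx3* to *Fosb* have both red marks above both blue marks, those from *Cdon* to *Comp* have them below, and *Col2a1* shows 1 GFP- library apart at 1498.

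Of 33 cell cycle genes 31 had a positive difference, with a median of 0.67, and 8 were called higher [4, 8, 7 and 1]. When only the 4 Pdgfrα+ libraries were fitted, 2 members were called higher. *Mki67*, a protein of cycling cells, was at 294 and 255 in the GFP+ libraries and 130.5 and 106 in the GFP- libraries, with both GFP+ libraries above both GFP- libraries (2.32-fold, adjusted p = 6.37e-04). *Ccnb1*, which encodes the mitotic cyclin B1, was at 21.1 and 19.98 in the GFP+ libraries and 9.71 and 4.9 in the GFP- libraries, and its adjusted p-value of 0.00735 became 0.0647 without GFP+ replicate 1 and 0.0674 without GFP- replicate 2. The 17 genes of G2 and M phase gave 7 of the calls [2, 7, 6 and 1] and a median of 0.82, and the 16 of S phase 1 call [2, 1, 1 and 0] and a median of 0.41. The summed level of the list was 1000.5 and 860.2 in GFP+ cells, 568 and 469 in GFP- cells, and 1738 and 1522 in GFP+ Pdgfrα- cells. In GFP- Pdgfrα- cells it was 12685 and 13918. Of 12 cell cycle inhibitors 2 were higher [1, 3, 0 and 1] and 1 lower [1, 1, 1 and 1], the last being *Gas1*, described above with the Hedgehog coreceptors.

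Immediate-early genes, which respond within minutes to growth factors, load or handling, gave 6 higher of 16 [4, 6, 6 and 3], and the 7 heat shock genes of the same list gave no call by limma, edgeR or voom (4 at an unadjusted p-value under 0.05), 1 by DESeq2 and 2 with the replicate block. Over the list of 23 these were 6 calls [4, 6, 6 and 3] and a median of 0.58. *Fosb* was at 361 and 257 in the GFP+ libraries and 62.1 and 52.7 in the GFP- libraries, *Egr2* at 89.6 and 53.3 in the GFP+ libraries and 15.8 and 16.2 in the GFP- libraries and *Zfp36*, which destabilises cytokine mRNAs, at 388 and 258 in the GFP+ libraries and 131 and 87.8 in the GFP- libraries. The GFP+ libraries were above the GFP- libraries in all 3, by 5.38-fold, 4.47-fold and 2.95-fold (adjusted p = 2.13e-04, 0.00114 and 0.00133). *Atf3* was at 83 and 65.1 in the GFP+ libraries and 22.6 and 19.5 in the GFP- libraries and *Junb* at 68.1 and 57.9 in the GFP+ libraries and 26.3 and 18.6 in the GFP- libraries; the adjusted p-value of *Atf3*, 0.00518, became 0.068 without GFP+ replicate 1 and 0.0776 without GFP- replicate 2, and that of *Junb*, 0.00274, became 0.0521 without GFP- replicate 2. The summed level of the list was 4814 and 4100.3 in GFP+ cells, 3617 and 3099 in GFP- cells, and 9559 and 11702 in GFP+ Pdgfrα- cells, with *Hspa8* the most abundant member. The part of cell handling in these values was not tested.

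Genes that pattern the limbs and trunk were lower where they were called, with the exception of 1. Among 29 patterning factors 8 were lower [1, 5, 2 and 0] and 1 higher [1, 1, 0 and 0], with a median of −0.53, and among 32 entries for 31 Hox genes 4 were lower [1, 2, 1 and 0], with a median of −0.29. The lower calls of both lists were lost without GFP- replicate 2. *Hoxd11*, which patterns the forearm and lower leg, was at 0.414 and 1.29 in the GFP+ libraries and 6.18 and 10.5 in the GFP- libraries. *Tbx5*, of the forelimb, was at 15.3 and 16.8 in the GFP+ libraries and 53.8 and 50.9 in the GFP- libraries, and *Six2*, a homeobox factor of tendon and kidney progenitors, at 1.24 and 2.44 in the GFP+ libraries and 9.45 and 13.8 in the GFP- libraries. In each the GFP- libraries were the higher ones; *Hoxd11* and *Six2* rested on few reads. The adjusted p-value of *Hoxd11*, 0.00717, became 0.066 without GFP+ replicate 1 and 0.086 without GFP- replicate 2, that of *Tbx5*, 0.0177, became 0.0962 without GFP+ replicate 1, 0.0702 without GFP+ replicate 2, 0.145 without GFP- replicate 1 and 0.126 without GFP- replicate 2, and that of *Six2*, 0.00967, became 0.0768 without GFP+ replicate 1 and 0.107 without GFP- replicate 2. Of the Hox genes 3 were called lower with the replicate block, 1 by edgeR, 2 by voom and 0 by DESeq2. *Irx5*, an Iroquois homeobox factor, was the higher member, at 17.8 and 7.91 in the GFP+ libraries and 1.39 and 1.34 in the GFP- libraries, and its adjusted p-value of 0.00597 became 0.0561 without GFP- replicate 1 and 0.0655 without GFP- replicate 2.

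Markers of other cell types in the sort were read as lists. The skeletal muscle list had 4 of 15 called, all higher [2, 3, 4 and 2], 3 of them among the 5 genes of muscle precursors [1, 2, 3 and 1]. *Pax7*, the transcription factor of satellite cells, was at 10.4 and 14.5 in the GFP+ libraries and 0.378 and 0.446 in the GFP- libraries, and at 296 and 336 in GFP+ Pdgfrα- cells. *Myf5*, which commits cells to muscle, was at 3.45 and 4.17 in the GFP+ libraries and 0.63 and 0.148 in the GFP- libraries and in GFP+ Pdgfrα- cells at 131 and 131. Its adjusted p-value of 0.0134 became 0.0548 without GFP+ replicate 1, 0.0698 without GFP+ replicate 2 and 0.109 without GFP- replicate 2. *Ttn*, which encodes the sarcomere protein titin, was at 109.8 and 79.2 in the GFP+ libraries and 17.8 and 30.1 in the GFP- libraries. *Pax7* and *Myf5* were at the floor in both GFP- libraries and above it in both GFP+ libraries, by at least 12-fold and at least 3.67-fold (adjusted p = 1.26e-04 for *Pax7*). In sum the list reached 233 and 212 in GFP+ cells, 84.6 and 81.5 in GFP- cells, and 2275 and 2131 in GFP+ Pdgfrα- cells. *Ttn* was the most abundant member (42.4% of the GFP+ sum), and no member was at 0 reads in both libraries of either Pdgfrα+ group. The GFP+ Pdgfrα+ sum was 10.1% of that in GFP+ Pdgfrα- cells, where all 15 members had a higher mean. The part of muscle precursors in the result was not tested.

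Of 15 Schwann cell and neural crest genes 5 were higher [2, 3, 2 and 2], with a median of 0.82. None was lower by limma (2 at an unadjusted p-value under 0.05), with 0 by edgeR and 1 each by DESeq2, by voom and with the replicate block. *Sox10*, the transcription factor of neural crest and glia, was at 13.4 and 9.34 in the GFP+ libraries and 0.126 and 1.04 in the GFP- libraries and in GFP+ Pdgfrα- cells at 83.2 and 85.8. *Erbb3*, the neuregulin receptor of Schwann cells, was at 20.6 and 22.3 in the GFP+ libraries and 1.89 and 2.23 in the GFP- libraries and in GFP+ Pdgfrα- cells at 131 and 131. The GFP+ libraries were above the GFP- libraries for both, by at least 10.9-fold and 10.4-fold (adjusted p = 0.0014 and 1.66e-04). The summed level was 676 and 669 in GFP+ cells, 804 and 716 in GFP- cells, and 906 and 797 in GFP+ Pdgfrα- cells. That sum was dominated by *Pmp22* (72.4% of the GFP+ sum), which mesenchymal cells also express and which was not called (adjusted p = 0.0615, and 0.0460 with replicate number as a block). *Gfra3* was at 0 reads in both GFP- libraries, and 11 of the 15 genes had their higher mean in the GFP+ Pdgfrα- libraries and not in the GFP+ Pdgfrα+ ones. The part of Schwann cells in the result was not tested.

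Pericyte and smooth muscle genes gave 4 higher of 12 [2, 3, 2 and 1], with a median of 0.85. *Acta2*, which encodes smooth muscle actin, was at 73.3 and 46.4 in the GFP+ libraries and 11.5 and 14.4 in the GFP- libraries, 4.63-fold apart (adjusted p = 1.96e-04), and in GFP+ Pdgfrα- cells at 584 and 623. *Myh11*, the smooth muscle myosin, was at 13.9 and 5.61 in the GFP+ libraries and 1.39 and 2.23 in the GFP- libraries and in GFP+ Pdgfrα- cells at 131 and 224. The adjusted p-value of 0.0214 became 0.16 without GFP+ replicate 1, 0.168 without GFP- replicate 1 and 0.0902 without GFP- replicate 2. *Rgs5*, a pericyte marker, was at 69.5 and 70.6 in the GFP+ libraries and 35.2 and 48.3 in the GFP- libraries, not called (adjusted p = 0.139, and 0.0354 with replicate number as a block), and at 731 and 1035 in GFP+ Pdgfrα- cells. The summed level was 784 and 784 in GFP+ cells, 645 and 651 in GFP- cells, and 2576 and 3319.9 in GFP+ Pdgfrα- cells. *Anpep* was the most abundant member (27.3% of the GFP+ sum), and no member was at 0 reads in both libraries of either Pdgfrα+ group. The part of mural cells in the result was not tested.

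The remaining lists of other cells held few calls. None of 11 endothelial genes was called by limma, edgeR, DESeq2 or voom, with 1 at an unadjusted p-value under 0.05 and a median of 0.52. Their summed level was 75 and 91.6 in GFP+ cells and 57.1 and 61.9 in GFP- cells. *Tek* was the most abundant member, and none was at 0 reads in both libraries of a group. The 10 erythroid genes gave 0 calls by each of these tools and 0 at an unadjusted p-value under 0.05. Their summed level was 46.7 and 48.3 in GFP+ cells and 57.2 and 40.4 in GFP- cells. The most abundant erythroid gene was *Hbb-b1*, and *Gata1* was at 0 reads in both GFP+ libraries. Of 9 blood and myeloid genes 1 was called lower [0, 0, 0 and 1]. It was *Lyz2*, which encodes the lysozyme of myeloid cells, at 1.52 and 2.44 in the GFP+ libraries and 16.5 and 5.2 in the GFP- libraries; its adjusted p-value of 0.0374 became 0.177 without GFP+ replicate 1, 0.0853 without GFP+ replicate 2 and 0.301 without GFP- replicate 1. That list summed to 6.21 and 24 in GFP+ cells and 27.1 and 15.3 in GFP- cells. *Lyz2* was its most abundant member over the 4 libraries, and *Ptprc* and *Elane* were at 0 reads in both GFP- libraries. Of 4 neuronal genes 2 were lower [1, 2, 0 and 0] and 1 higher [0, 1, 0 and 0] at sums between 3.16 and 13.7, that is, on few reads, with *Stmn2* the most abundant over the 4 libraries though not in GFP+ cells, *Prph* at 0 reads in both GFP+ and *Tubb3* in both GFP- libraries; edgeR and DESeq2 called none of the 4. The part of these cells in the results was not tested.

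Limma called 0 of 76 nuclear genes of oxidative phosphorylation (10 at an unadjusted p-value under 0.05, all higher; edgeR called 0, DESeq2 1 and voom 1, and 2 were called with the replicate block and 1 without GFP+ replicate 2). Of the 76, 53 had a positive difference, with a median of 0.14. It also called 0 of 13 protein genes of mitochondrial DNA (1 at an unadjusted p-value under 0.05), 0 of 17 glycolysis genes (2) and 0 of 12 interferon response genes (2), and the other tools called 0 of each. The single call of 83 cytoplasmic ribosomal protein genes was *Rpsa*, at 190.2 and 165 in the GFP+ libraries and 101 and 98.5 in the GFP- libraries, whose adjusted p-value of 0.00575 became 0.0654 without GFP+ replicate 1, 0.0585 without GFP- replicate 1 and 0.073 without GFP- replicate 2. Without GFP+ replicate 1, 2 other genes of the 83 were called, 1 higher and 1 lower. The list's median was 0.03. Among 20 genes for folding and stress in the endoplasmic reticulum 19 had a positive difference, 8 were at an unadjusted p-value under 0.05 and 1 was called [0, 1, 0 and 0], with a median of 0.29. It was *Sec61a1*, part of the channel through which new proteins enter the reticulum, at 267 and 253 in the GFP+ libraries and 154 and 165 in the GFP- libraries, and its adjusted p-value of 0.00715 became 0.064 without GFP+ replicate 1, 0.0887 without GFP- replicate 1 and 0.0602 without GFP- replicate 2. Of 19 entries for 18 genes of adipogenic and reticular stroma 1 was higher [0, 0, 1 and 0] and 1 lower [1, 1, 0 and 0; 2 with the replicate block], with a median of 0.20. Of 36 integrin, laminin and basement membrane genes 2 were higher [0, 1, 0 and 0; 1 with the replicate block] and 2 lower [0, 0, 0 and 0], with a median of 0.04.

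The lists held 192 of the called genes and 657 were in none. Among those reported, the 10 with the highest mean level were all lower in GFP+ cells. *Fndc1*, a fibronectin type III domain protein of the matrix, was at 602 and 692 in the GFP+ libraries and 1653 and 1644 in the GFP- libraries (log2 difference −1.35, adjusted p = 1.26e-04). *Myadm*, a membrane protein that spreads cells, was at 686 and 777 in the GFP+ libraries and 1505 and 1338 in the GFP- libraries, *Tns1* (tensin), which ties integrins to actin, at 452 and 447 in the GFP+ libraries and 821 and 751 in the GFP- libraries, and the transcription factor *Nfix* at 395 and 384 in the GFP+ libraries and 694 and 666 in the GFP- libraries. Those 3 were lower by 1.94-fold, 1.75-fold and 1.74-fold, with replicates close together. Exons of *Nfix* overlap those of other genes in the table, so part of its level may be theirs. *Vim*, the vimentin gene, was at 1597 and 1538 in the GFP+ libraries and 2382 and 2157 in the GFP- libraries, and *Axl*, a receptor tyrosine kinase for *Gas6*, at 441 and 492 in the GFP+ libraries and 776 and 732 in the GFP- libraries. Their adjusted p-values of 0.0183 and 0.0441 became 0.0784 without GFP+ replicate 1, 0.0967 without GFP+ replicate 2, 0.18 without GFP- replicate 1 and 0.086 without GFP- replicate 2 for *Vim*, and 0.211 without GFP+ replicate 1, 0.112 without GFP+ replicate 2, 0.257 without GFP- replicate 1 and 0.19 without GFP- replicate 2 for *Axl*. *Gas6* itself, the lower member of the adipogenic and reticular list, was at 91 and 98.5 in the GFP+ libraries and 207 and 204 in the GFP- libraries, so ligand and receptor were lower together. Its adjusted p-value of 0.00358 became 0.0559 without GFP- replicate 1 and 0.0598 without GFP- replicate 2.

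A few further genes in no list were chosen after their values were seen, for their level and distance between groups. *Sgms2*, which makes sphingomyelin at the plasma membrane, was at 990.3 and 658 in the GFP+ libraries and 146 and 113 in the GFP- libraries (6.38-fold, adjusted p = 2.76e-04). It rose together with *Smpd3*, whose product splits the same lipid. *Car3*, a carbonic anhydrase, was at 209 and 157 in the GFP+ libraries and 15 and 8.46 in the GFP- libraries, and *Ptgs2*, the inducible cyclooxygenase that makes prostaglandins, at 78 and 64 in the GFP+ libraries and 8.7 and 2.52 in the GFP- libraries. Both were 15.6-fold and 12.7-fold higher in GFP+ cells, respectively. *Cpe*, a carboxypeptidase that matures secreted peptides, was at 519 and 407 in the GFP+ libraries and 127 and 154 in the GFP- libraries, *Serpine2*, an inhibitor of serine proteases, at 459 and 353 in the GFP+ libraries and 135 and 134 in the GFP- libraries, and *Zeb2*, a repressor active in neural crest and mesenchyme, at 504 and 436 in the GFP+ libraries and 212 and 199 in the GFP- libraries. All were higher in both GFP+ libraries (adjusted p = 7.35e-04, 2.81e-04 and 2.13e-04). *Tgfbi*, a secreted adhesion protein induced by TGF-β, went the other way at 83.3 and 78.3 in the GFP+ libraries and 365 and 346 in the GFP- libraries (4.4-fold lower, adjusted p = 2.91e-05).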

How the data were processed

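The signal values of the deposited table were made by the authors, who trimmed reads with cutadapt, quantified them with RSEM on NCBIM37 and normalised them. As deposited, each value was an integer count to which 0.5 had been added, scaled to 1000000 by a normalised library size, so reads could be recovered. All 8 libraries were fitted here with limma 3.58.1 in R 4.3.3, with trended eBayes on log2(value + 1) and a coefficient per population. Recovered reads were tested with edgeR 4.0.16, DESeq2 1.42.0 and limma voom as alternatives, and tables were made in Python 3.11.15 with pandas 2.3.3. Lengths are exon unions of the GENCODE annotation on NCBIM37. Genes were counted by identifier, so a symbol with 2 identifiers gave 2 entries. Summed levels of a list are sums of values over its members, and its most abundant member had the highest mean over the 4 Pdgfrα+ libraries.

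The 50 gene lists and their members, 1008 genes of the table, were chosen with earlier results of these data known. Named genes were, of those reported, the ones with the 10 largest increases and 10 largest decreases, the 10 most abundant called genes in no list, in each list up to 6 called in each direction and 4 not called, and the sort markers; others, among them genes named for 0 reads, were chosen after their values were seen. Results of some genes are not reported.

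Replicate numbers were checked as pairs, since the study describes each set as littermate pools. Correlations of replicate differences between populations were 0.00433 to 0.0812, and *Xist* was 2.9 and 868 in replicates 1 and 2 of the GFP+ and 8.95 and 1379.7 in those of the GFP- Pdgfrα+ cells, and was higher in replicate 2 of each population. Its adjusted p-value of 0.903 became 0.0146 with replicate number as a block, which was fitted as an alternative.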

Additional observations from a re-analysis of the deposited data

Results flagged for a closer look

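The GFP effect was compared between Pdgfrα+ and Pdgfrα- cells for 10 reported genes, the 5 that rose most and the 5 that fell most, as the difference of the 2 effects in the same limma fit, and for 7 of these 10 the adjusted p-value did not exceed 0.05. The genes were picked for a large effect in Pdgfrα+ cells, and that choice favours a larger effect there. The p-values are therefore too small by an amount that was not tested, and they do not decide whether the 2 effects differ. In Pdgfrα- cells the GFP effect had the same direction for all 10 and was called for 9, all but *Ptx4*. There it was 3.06 for *Slc13a5*, 3.64 for *Ibsp*, 3.70 for *Dmp1*, 2.42 for *Spp1* and 1.40 for *Panx3*. For the genes that fell it was −1.65 for *Tnmd*, −2.70 for *Kera*, −0.71 for *Ptx4*, −3.24 for *Lect1* and −1.29 for *Pappa2*. The GFP- Pdgfrα- cells, the reference for these effects, differed in other lists as well. Erythroid genes summed to 13942 and 22007 there, against 173 and 91.3 in GFP+ Pdgfrα- cells. Cell cycle genes summed to 12685 and 13918, against 1738 and 1522. The part of such cells in the differences below was not tested. As measured in these chosen genes, the increase was larger in Pdgfrα+ cells by a log2 difference of 1.76 for *Ibsp* (adjusted p = 0.00144), 2.01 for *Spp1* (0.000405) and 3.04 for *Panx3* (0.00124). The decrease was larger there by −2.25 for *Tnmd* (7.84e-05). The other 3 called differences rested on groups at or close to the floor. The mean of *Slc13a5* in GFP- Pdgfrα- cells was 0.772 and that of *Pappa2* in GFP+ Pdgfrα- cells 0.618, both below 3 reads. The floor can hide part of the effect in Pdgfrα- cells. Their differences, 2.79 (adjusted p = 0.000332) and −2.17 (0.00400), may therefore be too large, and they are not limits. Under the alternatives they ranged from 2.17 to 3.58 for *Slc13a5* and from −2.33 to −1.02 for *Pappa2*. *Ptx4*, a pentraxin family member, was at 0.69 and 0.144 in the GFP+ libraries and 20.8 and 13.5 in the GFP- libraries, and its means in GFP+ and GFP- Pdgfrα- cells were 0.254 and 1.03. A decrease like that in Pdgfrα+ cells could not have been seen there, so its difference of −2.97 (adjusted p = 0.00116) does not compare the 2 effects. With edgeR, DESeq2 or voom the differences of *Ptx4* and *Pappa2* were not called, nor was that of *Pappa2* with a pseudocount of 0.1. By edgeR, DESeq2 and voom the difference was −3.13, −3.02 and −3.41 for *Ptx4* and −1.07, −1.02 and −1.19 for *Pappa2*. Below 3 reads lay also the means in GFP+ Pdgfrα- cells of *Kera* (0.246) and *Lect1* (0.747). *Dmp1* (1.20, adjusted p = 0.0533), *Kera* (−1.18, 0.0935) and *Lect1* (−0.34, 0.749) were not called, and the direction for *Kera* and *Lect1* reversed under other alternatives. *Dmp1* was called without GFP+ replicate 2 or GFP- replicate 2, after quantile normalization and after median centring, and *Kera* without GFP+ replicate 1.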

How the results depend on the processing

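Without a mean-variance trend 532 genes were called, 334 higher and 198 lower, and at a threshold of 0.01 there were 361, 236 and 125. A pseudocount of 0.1 gave 204 lower and voom 536 lower. Leaving out 1 library gave 246 to 517 calls, 169 to 353 higher and 73 to 164 lower. The replicate number as a block gave 924 calls, 549 higher and 375 lower, and apart from the values given beside the results it changed no other call named in the text. Under the other alternatives the total, higher and lower counts stayed within 1.5 times.

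Counts of list members moved more. Of those under all alternatives 256 were smaller and 45 larger by over 1.5 times, and 21 rose from 0. Without a trend, and at a threshold of 0.01, 29 each were smaller and 71 each stayed within 1.5 times. Without a trend the lower calls went from 8 to 1 for collagens, 8 to 2 for cartilage and 4 to 1 for interstitial fibroblasts. In that fit the higher calls went from 8 to 4 in the cell cycle and 5 to 1 for collagen modification. Higher calls there also went from 4 to 2 for pericyte genes and for vessel growth genes. Lower calls there went from 3 to 0 for BMP and TGF-β and for imprinted genes, and from 3 to 1 in IGF. They went from 6 to 3 for small leucine-rich proteoglycans and from 8 to 5 for patterning factors. With only the 4 Pdgfrα+ libraries fitted, lower calls went from 4 to 7 for interstitial fibroblasts, 3 to 5 in BMP and TGF-β, 8 to 13 for collagens, 7 to 11 for matricellular genes, 3 to 5 for imprinted genes, 8 to 5 for patterning factors and 4 to 1 for Hox genes, and higher calls from 8 to 2 in the cell cycle and 5 to 3 for Schwann genes. With voom the lower calls were 9 for fibroblasts, 6 in BMP and TGF-β, 7 in IGF, 14 for collagens, 14 for matricellular genes and 9 for imprinted genes, and the higher calls 10 for collagen modification, 10 for proteases and 3 for Schwann genes. EdgeR gave 8, 10, 7 and 5 for collagen modification, proteases, fibroblasts and lower BMP and TGF-β genes, and DESeq2 gave 13 for lower collagens and 5 for lower patterning factors. A pseudocount of 0.1 left 1 lower in each of Wnt, axon guidance, BMP and TGF-β, patterning and imprinted genes, 2 for Hox genes and fibroblasts, and 2, 2 and 3 higher in collagen modification, BMP and TGF-β and Schwann genes. Quantile normalization gave 5 for lower collagens and 3 for Schwann genes. The counts given here are examples, and other larger counts moved as well. Counts of 1 or 2 calls in other lists moved by at most 2.

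Of the 10 differences of the GFP effect, edgeR, DESeq2 and voom called 5 each. That of *Kera* reversed to 0.39 with a pseudocount of 0.1, 1.54 with edgeR, 1.84 with DESeq2 and 1.02 with voom. That of *Lect1* reversed to 0.0836 after median centring, 0.0909 with edgeR and 0.0983 with DESeq2, and ranged from −1.09 to 0.41 with 1 library left out. Among genes not called, the GFP difference of *Hspa8* reversed to 0.16 after quantile normalization. With 1 library left out it ranged from −0.0646 to 0.0405 for *Hspa8*, −4.91 to 2.89 for *Xist*, −0.35 to 0.18 for *Hbb-b1*, −0.33 to 0.0250 for *Ctsk*, and −0.34 to 0.0189 for *Gata1* and for *Matn1*. The cause of these changes was not tested. With 2 libraries per group and 3221217 to 3869275 reads, values of a few reads were imprecise.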
